A study of Homo sapiens with 16 samples.

Results

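The 9 mucin genes MUC1, MUC2, MUC4, MUC5AC, MUC5B, MUC13, MUC15, MUC16 and MUC20 were followed in T-47D and ECC-1 cells after 8 h of treatment. They were chosen by symbol, and 8 of the 9 had a row among 21453 gene symbols. MUC5AC had no row and was not analysed here. RNA was sequenced from T-47D, an established breast cancer line, and ECC-1, an established endometrial cancer line, each a single line standing for its tissue. Stocks of ECC-1 have been reported to match another endometrial line genetically. The 8 groups were 10 nM 17β-estradiol, 100 nM bisphenol A (BPA), 100 nM genistein and 0.02% DMSO in T-47D, and the same treatments in ECC-1, with 2 libraries per group and 16 in all. All groups had spent 5 days in phenol red-free medium with 10% serum stripped of steroids by dextran and charcoal. BPA is a plastics monomer and genistein a soy isoflavone, and both bind estrogen receptors. Nothing in the labels says that the 2 libraries of a group came from separate cultures. The p-values therefore measure how far such libraries differ, which may be technical.

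Mucins are large glycoproteins whose serine- and threonine-rich stretches, often tandem repeats, carry dense O-linked sugars. MUC2, MUC5AC and MUC5B are secreted and form mucus gels, MUC5B being a main gel-forming mucin of cervical and airway mucus. MUC1, MUC4, MUC13, MUC15, MUC16 and MUC20 are membrane mucins. MUC1 lines the apical surface of breast and endometrial epithelium, and MUC16 carries the antigen measured as a serum marker of ovarian cancer.

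The coding sequences showed the family's shared feature. Serine and threonine codons made up 38.3% of codons in MUC4, 36% in MUC16, 35.2% in MUC5AC, 32% in MUC5B, 31.8% in MUC20, 26.1% in MUC1, 24.0% in MUC13 and 23.0% in MUC15, against a median of 12.9% over 18992 genes. The MUC2 coding sequence was not read here. The repeats below are shown because they carry these codons and because identical copies limit where short reads can be placed. Each was read from the GRCh38 genome with GENCODE annotation, 5′ to 3′ on the coding strand, and capitals mark in-frame serine and threonine codons.
MUC5B, 87 bases: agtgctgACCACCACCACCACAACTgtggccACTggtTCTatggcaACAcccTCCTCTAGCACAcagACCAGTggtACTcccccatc
MUC20, 57 bases: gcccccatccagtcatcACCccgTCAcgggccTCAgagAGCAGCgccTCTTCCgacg
MUC4, 48 bases: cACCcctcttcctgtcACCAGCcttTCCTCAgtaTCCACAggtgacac

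The MUC5B unit lies at chr11:1243189-1243275 on the plus strand, in coding exon 31 of 49, and occurs in 5 exact copies. In it, 16 of 28 full codons encode serine or threonine. The MUC20 unit, at chr3:195725148-195725204 on the plus strand in exon 1 of 3, occurs in 10 exact copies and holds 7 such codons among 18. The MUC4 unit, at chr3:195788035-195788082 on the minus strand in exon 2 of 25, occurs in 14 exact copies and holds 7 among 15. The MUC4 transcript whose values are used below is a shorter one, of 3829 bases, in which no 36-base window was repeated. The MUC20 unit was read from a GENCODE transcript with no paired RefSeq accession, which may differ from the row used.

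Levels are RPKM, reads per kilobase of transcript per M mapped reads, as the authors deposited them, divided by 1 scale factor per library. For genes with several transcript rows, the row with the highest mean was used. Depth was estimated as the value that brought the largest share of low RPKM values near a whole number of reads. It was 17.4 to 29.4 M reads per library. Read numbers given below also use GENCODE transcript lengths, and are too low where the deposited transcript was longer. The first estradiol library of each line stood apart, with a median correlation of 0.980 (T-47D) and 0.987 (ECC-1) with the other libraries of its line, against 0.989 to 0.997 for the other 14. Between the 2 DMSO groups, the luminal breast factor GATA3 averaged 300.2 RPKM in T-47D and 0.0184 RPKM in ECC-1, and the Mullerian factor PAX8 averaged 0.0242 RPKM in T-47D and 91.0 RPKM in ECC-1. ESR1, which encodes estrogen receptor alpha, averaged 31.4 RPKM in T-47D and 21.6 RPKM in ECC-1. Of the fibroblast, leukocyte and endothelial markers, 3 of 6, 2 of 6 and 1 of 5 passed the filter on low values, and none was called in any ECC-1 treatment contrast. In T-47D 1 of them was called, the fibroblast marker LUM, at 0.601 RPKM with estradiol and 1.12 RPKM with DMSO (limma adjusted p = 0.0186). Over all genes, 3.22% were called in that contrast, and 0.195 to 1.89% in the ECC-1 contrasts with DMSO.

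The 2 lines had different mucins at the top. In T-47D, the order by median over 8 libraries was MUC1 (231.6 RPKM), MUC20 (2.20), MUC15 (0.307), MUC5B (0.241), MUC4 (0.0944), MUC16 (0.0436), MUC13 (0.0402) and MUC2 (0.0202). MUC1 and MUC20 did not overlap each other or the rest, while each neighbouring pair from MUC15 downward overlapped between libraries. In ECC-1, the order was MUC16 (12.3 RPKM), MUC5B (4.24), MUC20 (2.38), MUC1 (1.19), MUC4 (0.0942), MUC15 (0.0486), MUC2 (0.0222) and MUC13 (0). The place of MUC5B rests on the treated libraries: with DMSO alone the ECC-1 means were 11.05 RPKM for MUC16, 2.52 for MUC20, 1.35 for MUC1 and 0.785 for MUC5B. Over the 8 libraries MUC16 stood above all others, MUC5B and MUC20 overlapped, and MUC1 lay below MUC20 without overlap. MUC4 lay below MUC1 without overlap, and each neighbouring pair from MUC4 downward overlapped.

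**Figure D1:**
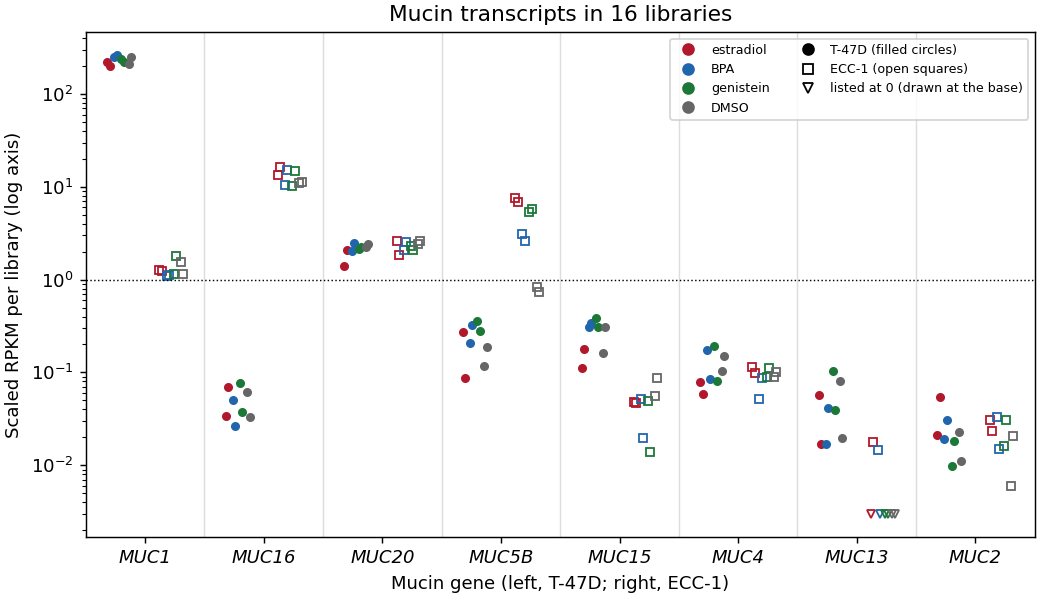
Scaled RPKM of the 8 mucin genes in each of 16 libraries, on a log axis, with T-47D on the left of each gene and ECC-1 on its right. The dotted line is 1 RPKM, the minimum asked of at least 2 libraries for testing, and triangles at the bottom are values listed at 0. MUC1 lies highest in T-47D (200.7 to 261.8 RPKM) and MUC16 in ECC-1 (10.1 to 16.4 RPKM).

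Differences were tested with limma on log2(scaled RPKM + 0.5) over all 13827 genes that reached 1 RPKM in at least 2 libraries, and a gene was called at a Benjamini-Hochberg adjusted p under 0.05. MUC1, MUC5B, MUC16 and MUC20 passed this filter. MUC5B passed only through ECC-1 libraries with estradiol, BPA or genistein, and MUC16 only through ECC-1 libraries, so counts over the 4 genes describe them and support nothing further. MUC2, MUC4, MUC13 and MUC15 did not pass, with highest deposited values of 0.0528, 0.185, 0.0998 and 0.376 RPKM.

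MUC5B rose in ECC-1 with all 3 compounds. It measured 7.60 and 6.90 RPKM with estradiol, 3.10 and 2.60 RPKM with BPA, and 5.37 and 5.70 RPKM with genistein, against 0.832 and 0.738 RPKM with DMSO. Every treated library lay above both DMSO libraries. These are levels in whole cultures, where a larger share of cells with the transcript and more transcript per cell cannot be told apart. The values rest on an estimated 318 to 2534 reads per ECC-1 library, since the transcript is 17911 bases long.

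Estradiol at 10 nM gave 7.25 ± 0.49 RPKM against 0.785 ± 0.066 RPKM with DMSO (SD, n = 2 each), a ratio of 9.24. The log2 difference was 2.59 (SE 0.16, 95% interval 2.26 to 2.92), with a limma adjusted p of 2.193e-07. BPA at 100 nM gave 2.85 ± 0.35 RPKM, a ratio of 3.63, and a log2 difference of 1.38 (interval 1.05 to 1.71, limma adjusted p = 0.000487). Genistein at 100 nM gave 5.53 ± 0.23 RPKM, a ratio of 7.05, and a log2 difference of 2.23 (interval 1.90 to 2.56, limma adjusted p = 1.09e-06). The added 0.5 makes the log2 differences of such low values smaller than the ratios of means. Without the first estradiol library of either line, the estradiol difference was 2.53 (limma adjusted p = 1.91e-06). The 3 contrasts share the same DMSO libraries and are not independent of one another.

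MUC5B was the 1 member called in each of these contrasts, higher each time. Over all 13827 tested genes, 1.89% were called with estradiol in ECC-1, 0.195% with BPA and 0.969% with genistein.

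**Figure D2:**
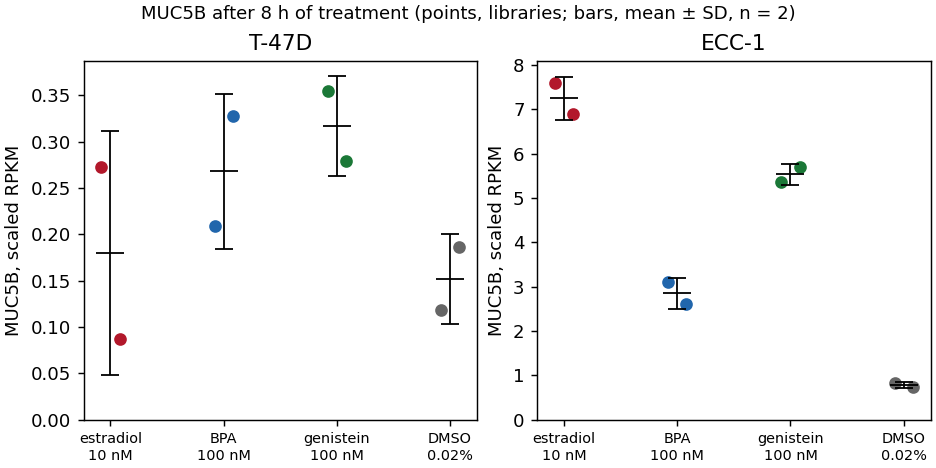
MUC5B in scaled RPKM by treatment, T-47D on the left and ECC-1 on the right, each panel with its own axis from 0. Points are libraries and bars the mean ± SD (n = 2). In ECC-1 the treated libraries sit between 2.60 and 7.60 RPKM, above DMSO at 0.738 and 0.832 RPKM, and all 8 T-47D libraries lie at or under 0.355 RPKM.

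In T-47D, MUC5B was low with every treatment. It measured 0.273 and 0.0872 RPKM with estradiol, 0.209 and 0.327 RPKM with BPA, and 0.355 and 0.279 RPKM with genistein, against 0.118 and 0.186 RPKM with DMSO. The estradiol libraries spanned the DMSO libraries, while both BPA and both genistein libraries lay above them. The log2 differences were 0.05 (95% interval -0.28 to 0.38), 0.23 (-0.10 to 0.57) and 0.33 (-0.01 to 0.66), with limma adjusted p of 0.917, 1 and 0.884. An estimated 31 to 126 reads stand behind each T-47D value.

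On the log2(scaled RPKM + 0.5) scale, the MUC5B response differed between the lines for 2 of the 3 compounds. All T-47D levels lay under the added 0.5, which holds log2 differences there close to 0. The ratios of means to DMSO were 1.185 for estradiol, 1.76 for BPA and 2.08 for genistein in T-47D. In ECC-1 they were 9.24, 3.63 and 7.05. The response in T-47D minus that in ECC-1 was -2.54 for estradiol (SE 0.22, 95% interval -3.01 to -2.07, limma adjusted p = 3.533e-05) and -1.91 for genistein (interval -2.38 to -1.44, limma adjusted p = 0.000405). For BPA it was -1.15 (interval -1.61 to -0.68), which did not pass (limma adjusted p = 0.114). The BPA difference passed without T-47D estradiol replicate 1 (adjusted p = 0.0498) or replicate 2 (0.0491), and over 25 alternatives its adjusted p ranged from 0.00774 to 1. MUC5B was again the 1 member called in the estradiol and genistein comparisons of lines, where 1.73% and 0.586% of all genes were called. None of the 4 was called by limma in the BPA comparison, against 0.0434% of all genes, and 1 of the 4, MUC5B, had an unadjusted p under 0.05.

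BPA and genistein were given at the same dose and time, so their MUC5B levels can be compared directly. Genistein libraries measured 5.37 and 5.70 RPKM in ECC-1, against 3.10 and 2.60 RPKM for BPA, with no overlap. The log2 difference was 0.85 (95% interval 0.52 to 1.18), but its limma adjusted p over all genes was 0.0891. This call depended on the setting, with an adjusted p of 0.00109 to 1 over 26 alternatives, and it passed in 5 of them. Among these were the fits without T-47D estradiol replicate 1 (adjusted p = 0.0371) and without T-47D estradiol replicate 2 (0.0366), libraries that enter only through the shared spread. In T-47D the difference was 0.09 (interval -0.24 to 0.42), with genistein at 0.355 and 0.279 RPKM and BPA at 0.209 and 0.327 RPKM. None of the 4 genes was called by limma between the compounds in either line, against 0.0434% of all genes in ECC-1 and 0.405% in T-47D, and at an unadjusted p under 0.05 there was 1, MUC5B in ECC-1, and 0 in T-47D.

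With DMSO alone, MUC5B was already lower in T-47D, at 0.152 ± 0.048 RPKM, than in ECC-1, at 0.785 ± 0.066 RPKM (SD, n = 2 each). The log2 difference was -0.98 (95% interval -1.31 to -0.65, limma adjusted p = 3.43e-05), and by means ECC-1 was 5.17 times T-47D. Within the MUC5B transcript, 34.2% of 36-base windows occurred more than once and 2.84% also occurred in MUC5B-AS1 or MUC5AC. The sources used here do not say how reads with several placements were counted. The libraries kept no strand, so MUC5B and the antisense MUC5B-AS1 cannot be told apart where they overlap.

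MUC5B stands in RefSeq between MUC5AC and TOLLIP on chromosome 11, in a cluster that also holds MUC2 and MUC6. TOLLIP, an adaptor that damps Toll-like receptor signalling, averaged 21.4 RPKM with estradiol, 19.5 RPKM with BPA and 23.1 RPKM with genistein in ECC-1, against 18.3 RPKM with DMSO. Its log2 differences there were 0.22, 0.09 and 0.33, none called (limma adjusted p = 0.457, 1 and 0.569). MUC2, the main mucin of intestinal mucus, measured 0.0060 to 0.0333 RPKM in ECC-1 and never approached the filter. Of 7 genes listed around the mucin clusters, 6 were tested and 0 were called by limma in any contrast with DMSO, where 0 to 3.22% of all genes were called. So small a list says nothing about these neighbours at such shares.

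The genes closest to MUC5B in pattern were sought among 682 genes called in at least 1 contrast with DMSO. Likeness was Pearson's r over the 8 group means of log2(scaled RPKM + 0.5), centred within each line. It is given as a description because these groups share libraries and DMSO references. All MUC5B levels in T-47D lay under the added 0.5 and vary little on this scale. For MUC5B, r therefore rests mainly on the ECC-1 means. The 5 closest were HTRA3 (r = 0.994), MMP17 (0.994), FUT3 (0.993), LOC100132247 (0.992) and STEAP3 (0.991), and 55 genes exceeded 0.95. HTRA3, a secreted serine protease, averaged 1.28 RPKM with estradiol, 0.812 with BPA and 1.17 with genistein in ECC-1, against 0.503 with DMSO. MMP17, a membrane-anchored matrix metalloproteinase, averaged 11.8 RPKM with estradiol, 3.87 with BPA and 9.59 with genistein in ECC-1, against 0.822 with DMSO. Unlike MUC5B, MMP17 was also present in T-47D, at group means of 7.40 to 9.26 RPKM. STEAP3, an endosomal iron reductase, averaged 11.9 RPKM with estradiol, 9.19 with BPA and 11.6 with genistein in ECC-1, against 6.50 RPKM with DMSO.

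**Figure D3:**
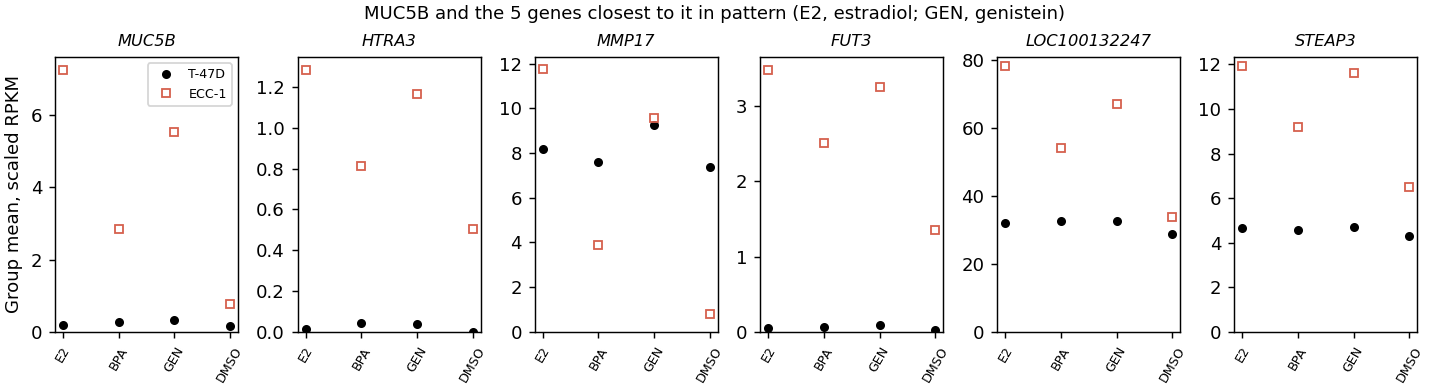
Group means in scaled RPKM of MUC5B and the 5 genes closest to it in pattern, for estradiol (E2), BPA, genistein (GEN) and DMSO. Filled circles are T-47D and open squares ECC-1, and each panel has its own axis from 0. MUC5B spans 0.785 to 7.25 RPKM in ECC-1, and MMP17 has T-47D means of 7.40 to 9.26 RPKM.

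MUC1 was the most abundant member, in T-47D. The T-47D libraries measured 222.9 and 200.7 RPKM with estradiol, 247.9 and 261.8 RPKM with BPA, and 240.4 and 219.8 RPKM with genistein, against 209.8 and 252.0 RPKM with DMSO. Each treated pair overlapped the DMSO pair. The log2 differences were -0.12 (95% interval -0.45 to 0.21), 0.15 (-0.18 to 0.48) and 0.00 (-0.33 to 0.33), with limma adjusted p of 0.761, 1 and 1. In ECC-1 MUC1 measured 1.25 and 1.23 RPKM with estradiol, 1.08 and 1.12 RPKM with BPA, and 1.15 and 1.78 RPKM with genistein, against 1.56 and 1.14 RPKM with DMSO. Both BPA libraries lay under both DMSO libraries, but no ECC-1 contrast was called (limma adjusted p = 0.841, 1 and 0.994).

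Between lines, MUC1 averaged 230.9 ± 29.9 RPKM in T-47D and 1.35 ± 0.30 RPKM in ECC-1 with DMSO (SD, n = 2 each), a ratio of 171. The log2 difference was 6.97 (SE 0.16, 95% interval 6.64 to 7.30), with a limma adjusted p of 7.132e-15. All 7 MUC1 transcript rows were called higher in T-47D, with log2 differences of 6.49 to 6.98. In this contrast 3 of the 4 members were called, MUC1 higher and MUC5B and MUC16 lower in T-47D. Since 76.7% of all tested genes were called there, a call between lines does not set the mucins apart.

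The 7 MUC1 rows fell into 4 short and 3 long transcripts. The mean of the short rows over that of the long rows was 0.801 and 0.549 in the estradiol libraries of T-47D, 0.589 and 0.574 with BPA, and 0.592 and 0.581 with genistein, against 0.578 and 0.578 with DMSO. One library, the first with estradiol, thus lay above the other 7. In ECC-1 the ratio ranged from 0.522 to 0.820, with the first library above the second in all 4 groups. The MUC1 row used above rests on an estimated 20 to 32 reads per ECC-1 library, so these ECC-1 ratios are imprecise.

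**Figure D4:**
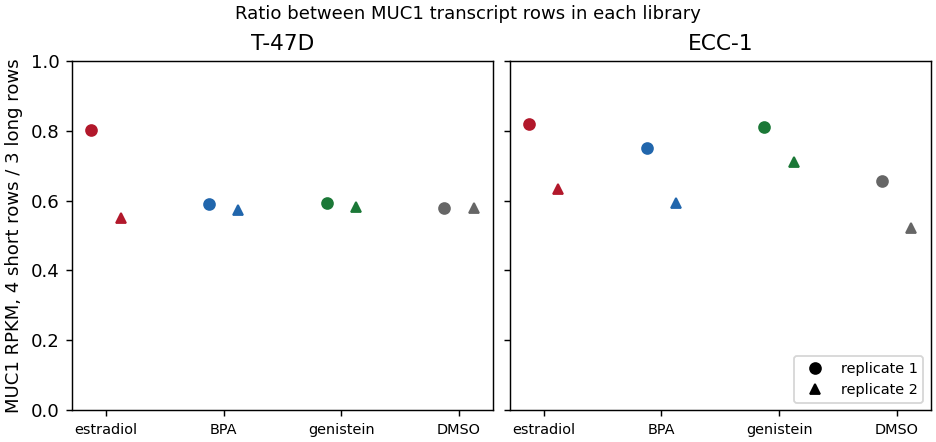
Mean RPKM of the 4 short MUC1 transcript rows divided by that of the 3 long rows, in each library, with T-47D on the left and ECC-1 on the right. Circles are replicate 1 and triangles replicate 2. In T-47D the first estradiol library stands at 0.801 and the other 7 between 0.549 and 0.592.

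The window upstream of MUC1 is printed because MUC1 showed the largest level of any member and no call with the 3 estrogenic compounds. It is RefSeq sequence on GRCh38.p14, chr1:155192916-155193165 on the minus strand, 250 bases ending at the annotated start, and capitals mark matches to GGGCGG, the letters bound by SP1-type factors.
MUC1 upstream: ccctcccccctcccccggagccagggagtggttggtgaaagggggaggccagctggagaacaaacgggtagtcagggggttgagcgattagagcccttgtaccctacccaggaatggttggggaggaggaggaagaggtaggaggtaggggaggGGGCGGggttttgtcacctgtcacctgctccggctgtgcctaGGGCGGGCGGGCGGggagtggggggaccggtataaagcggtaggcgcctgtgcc

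Matches were counted on both strands in windows of 300 bases, from 250 before to 50 after the start, and 5 of the 9 members matched the promoter table. MUC1 held 4 GGGCGG matches, some overlapping, a motif found in 45% of 35116 promoters, and 1 TATAAA, found in 11.5%. The palindromic estrogen response element, GGTCA followed after any 3 bases by TGACC, had no match in MUC1, MUC2, MUC4, MUC13 or MUC16 and was found in 0.057% of promoters. The single site AGGTCA, which shares 5 bases with each arm of it, had 1 match each in MUC2, MUC4 and 1 of the 2 MUC16 starts, none in MUC1 or MUC13, and was found in 13.8% of promoters. MUC5AC, MUC5B, MUC15 and MUC20 were not matched. Whether a match, or the lack of one, bears on the response of any member was not tested.

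MUC16, a very large membrane mucin, was an ECC-1 transcript. It measured 13.5 and 16.4 RPKM with estradiol, 10.4 and 15.2 RPKM with BPA, and 10.1 and 14.96 RPKM with genistein in ECC-1, against 10.9 and 11.2 RPKM with DMSO. Both estradiol libraries lay above DMSO, the BPA and genistein libraries spanned it, and the second library of each treated group was the higher. The estradiol log2 difference of 0.41 (95% interval 0.01 to 0.82) had a limma adjusted p of 0.314 and was not called. The BPA and genistein differences were 0.18 and 0.15 (limma adjusted p = 1 and 0.983). In T-47D all 8 libraries lay between 0.0265 and 0.0766 RPKM, an estimated 19 to 67 reads. With DMSO it averaged 0.0472 ± 0.0195 RPKM in T-47D and 11.05 ± 0.17 RPKM in ECC-1 (SD, n = 2 each), a log2 difference of -4.40 (interval -4.80 to -4.00, limma adjusted p = 1.03e-11). By means ECC-1 was 234 times T-47D, and the log2 difference was -6.25 with a pseudocount of 0.1.

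**Figure D5:**
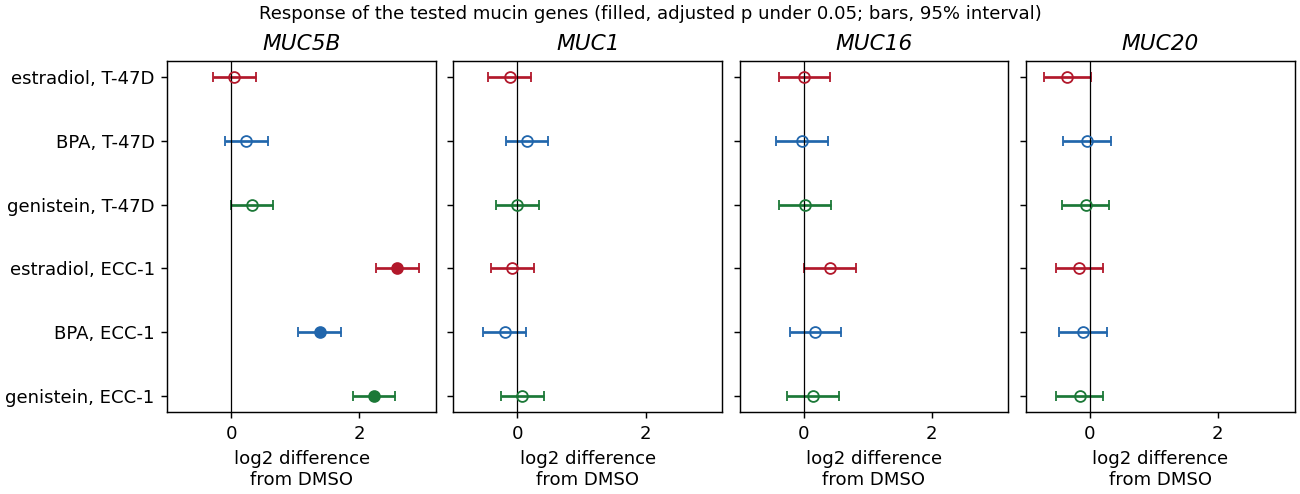
Log2 difference from DMSO on the log2(scaled RPKM + 0.5) scale for the 4 tested mucin genes, with 95% intervals from limma, for each compound in T-47D and ECC-1. MUC5B in ECC-1 stands at 2.59 with estradiol, 1.38 with BPA and 2.23 with genistein, and every other value lies between -0.35 and 0.41. In T-47D, MUC5B and MUC16 levels lay under the added 0.5, which keeps their differences small.

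MUC20, a membrane mucin described as a regulator of signalling by the MET receptor, was at like levels in both lines. It measured 1.39 and 2.10 RPKM with estradiol, 2.05 and 2.46 RPKM with BPA, and 2.15 and 2.26 RPKM with genistein in T-47D, against 2.25 and 2.40 RPKM with DMSO. The ECC-1 values were 2.60 and 1.85 RPKM with estradiol, 2.08 and 2.55 RPKM with BPA, and 2.33 and 2.09 RPKM with genistein, against 2.43 and 2.61 RPKM with DMSO. Both estradiol libraries of T-47D lay under DMSO. That difference, -0.35 (95% interval -0.72 to 0.02), was not called (limma adjusted p = 0.372), though it was -0.58 with an adjusted p of 0.0364 without T-47D estradiol replicate 2, leaving the library that stood apart, and -0.12 (adjusted p = 0.785) without the first estradiol library of either line. The line difference was -0.10 (interval -0.46 to 0.27, limma adjusted p = 0.624). In a MUC20 transcript paired with another RefSeq accession than the row used, 76.4% of 36-base windows also occurred in MUC20P1 or MUC20-OT1, so MUC20 values may include reads from those copies and are uncertain.

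In T-47D, then, no tested member was called by limma with estradiol, BPA or genistein, and none had an unadjusted p under 0.05. Over all genes, 3.22% were called with estradiol and 0.803% with genistein. With BPA in T-47D 0% were called, with 116 of 13827 at an unadjusted p under 0.05. That is a smaller share than the 0.05 that evenly spread p-values would give, so the lack of calls there does not show a lack of response.

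The other 4 members were near the limit of detection. MUC15, a cell surface mucin first found in bovine milk fat globule membranes, measured 0.111 to 0.388 RPKM in T-47D and 0.0141 to 0.0867 RPKM in ECC-1, with no overlap. In a fit with no filter, where 12009 of 19920 genes were called between lines with DMSO, its line difference was 0.36 (limma adjusted p = 0.00423). These levels rest on an estimated 6 to 16 reads in T-47D and 1 to 6 in ECC-1, and 3.86% of its 36-base windows also occur in ANO3. MUC13, an epithelial membrane mucin, measured 0.0169 to 0.103 RPKM in T-47D, while 6 of 8 ECC-1 libraries listed it at 0, an estimated 1 to 6 reads in T-47D against 0 to 1 in ECC-1. MUC4, a membrane mucin that binds ERBB2, measured 0.0592 to 0.191 RPKM in T-47D and 0.0512 to 0.114 RPKM in ECC-1, and MUC2 0.0097 to 0.0545 RPKM in T-47D and 0.0060 to 0.0333 RPKM in ECC-1. For MUC2, MUC4, MUC13 and MUC15, no treatment difference was called in the fit without a filter.

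Among 16 other mucin and mucin-like genes, 11 had rows and 5 were tested. None was called by limma in any contrast with DMSO, where 0 to 3.22% of all genes were called. So few genes say nothing at such shares. MUC6, a gel-forming mucin of the stomach from the MUC5B cluster, averaged 2.60 RPKM in T-47D and 0.577 RPKM in ECC-1 with DMSO (limma adjusted p = 3.24e-05). The endothelial and epithelial sialomucin PODXL averaged 1.86 RPKM in T-47D and 65.8 RPKM in ECC-1. The adhesion molecule MCAM averaged 3.70 RPKM in T-47D and 33.8 RPKM in ECC-1, and both were called lower in T-47D. Between lines with DMSO, 1 of the 5 was called higher in T-47D and 2 lower, against 76.7% of all genes called in either direction.

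Among 20 transferases that start O-glycans, 11 were tested and 1 was called with estradiol and with genistein in T-47D, contrasts in which 3.22% and 0.803% of all genes were called. This was GALNT4, at 12.7 and 14.1 RPKM with estradiol and 11.9 and 14.0 RPKM with genistein, against 6.23 and 6.92 RPKM with DMSO. The log2 differences were 0.97 and 0.92 (limma adjusted p = 0.000873 and 0.00341). GALNT4 shares exons with a read-through transcript from its neighbour POC1B, so its reads may be divided. The median over the 11 was -0.05 with estradiol, against -0.01 for all genes. Between lines, 6 of the 11 were called higher and 3 lower in T-47D, against 76.7% of all genes called in either direction. Among them were GALNT10 at 70.5 RPKM in T-47D and 8.25 in ECC-1, and GALNT7 at 4.73 RPKM in T-47D and 43.1 in ECC-1.

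Of 18 enzymes that extend or cap O-glycans, 14 were tested and 1 rose in ECC-1 with estradiol and with genistein, contrasts in which 1.89% and 0.969% of all genes were called. FUT3, which adds the fucose of Lewis antigens, measured 3.76 and 3.19 RPKM with estradiol and 2.94 and 3.56 RPKM with genistein, against 1.33 and 1.37 RPKM with DMSO. Its log2 differences were 1.10 and 1.02 (limma adjusted p = 0.000834 and 0.00266), and it was at most 0.185 RPKM in T-47D. The median over the 14 was 0.09 with estradiol and 0.05 with genistein in ECC-1, against 0 and -0.03 for all genes. FUT3 has close paralogs in FUT5 and FUT6, so its counts are uncertain. The difference between lines in the estradiol response was called lower in T-47D for FUT3 (-1.04, limma adjusted p = 0.0248) and ST3GAL1 (-0.94, 0.0475). These were 2 of the 14, in a comparison where 1.73% of all genes were called. ST3GAL1 is the sialyltransferase that caps the core structure of O-glycans. Between lines with DMSO, 4 of the 14 were higher and 8 lower in T-47D, against 76.7% of all genes called.

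Of 20 goblet cell and mucus secretion genes, 9 were tested. AGR2 is a disulfide isomerase needed for MUC2 folding in mouse intestine. With estradiol in ECC-1 it fell to 1.41 and 2.07 RPKM, against 4.31 and 3.10 RPKM with DMSO (log2 difference -0.91, limma adjusted p = 0.0163). It was the 1 gene of the 9 called there, where 1.89% of all genes were called. In T-47D, 2 of the 9 rose with estradiol and 1 fell, against 3.22% of all genes called. The rises were in TFF1, a secreted trefoil peptide, at 4.18 RPKM with estradiol and 0.196 RPKM with DMSO (limma adjusted p = 6.125e-05), and AGR3, a homolog of AGR2, at 41.3 RPKM with estradiol and 13.7 RPKM with DMSO (0.000102). Both also rose with genistein in T-47D, to 1.40 and 25.3 RPKM (limma adjusted p = 0.0382 and 0.0356). They were the 2 of the 9 called there, where 0.803% of all genes were called. BCAS1 fell to 17.3 RPKM with estradiol, against 26.7 RPKM with DMSO (limma adjusted p = 0.0304). The median over the 9 with estradiol was 0.24 in T-47D, against -0.01 for all genes, and -0.08 in ECC-1, against 0 for all genes. Between lines with DMSO, 7 of the 9 were higher in T-47D and 0 lower. The share called in either direction was like the 76.7% of all genes. Of all 13827 genes, 5469 were called higher in T-47D and 5135 lower, and the direction of this list was not tested as a set. SPDEF, a transcription factor of goblet cell maturation, averaged 205.8 RPKM in T-47D and 0.122 RPKM in ECC-1. Whether its level bears on MUC5B was not tested.

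Of 12 binding partners and sheddases of membrane mucins, 11 were tested. ERBB2, the receptor that MUC4 binds, fell with estradiol in T-47D to 100.3 RPKM, against 172.6 RPKM with DMSO (log2 difference -0.78, limma adjusted p = 0.0159). The median over the 11 there was -0.15, against -0.01 for all genes. ERBB2 was the 1 gene of the list called with estradiol in T-47D, where 3.22% of all genes were called. None was called by limma in ECC-1 with estradiol or genistein, against 1.89% and 0.969% of all genes. Over all genes, the number called with estradiol in T-47D was 445, and 92 with array weights.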

How the data were processed

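The authors deposited 1 table of RPKM values per library, per the files themselves with 32062 RefSeq transcript rows and no counts. Alignment used Bowtie and the hg19 build, per the submitters' processing notes. Versions, counting and the treatment of reads with several placements are not given in the sources used here. Per the labels' protocols the libraries came from polyadenylated RNA by a transposase method that keeps no strand.

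With GENCODE transcript lengths, depth was chosen to give the largest share of low values (under 10 reads) within 0.1 of a whole read. At these depths that share was 62.3 to 64.5%. By chance it would be 20% at a depth not chosen this way. Scale factors (0.938 to 1.05) were median ratios to the libraries' geometric mean, taken over 7547 genes that had 5 RPKM or more throughout. One limma 3.58.1 model in R 4.3.3, with 8 group means, 8 residual degrees of freedom and a mean-variance trend, was fitted to log2(scaled RPKM + 0.5), with Benjamini-Hochberg adjustment within each of 12 contrasts. It was tested on simulated data, for estradiol in ECC-1 only and with the same spread in every group. The spread of these libraries differs between groups, so that test does not cover this. The median 95% interval reached 0.33 to either side for treatments and 0.47 for comparisons of responses between lines. No libraries were identical.

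The members, the gene lists and the tests were chosen with earlier results of these data known. All members are named. Other lists give at most 4 called genes per contrast whose groups do not overlap, and likeness was computed for members called against DMSO. Alternatives changed the scaling, pseudocount, filter, transcript rows, block, weights and libraries, or fitted each line alone. They also moved the number of genes called over all 13827. With array weights it was 92 for estradiol in T-47D, against 445 as reported. In ECC-1 it was 123 for estradiol, against 262, and 841 for genistein, against 134. Libraries of a group differed most with estradiol (SD 0.411 in T-47D and 0.343 in ECC-1, against 0.17 to 0.242 elsewhere, log2 scale). Calls of listed genes other than members are not shown under these alternatives and are uncertain near 0.05. Coordinates refer to GRCh38 and not to the authors' build.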

Additional observations from a re-analysis of the deposited data

Results flagged for a closer look

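The MUC5B response to estradiol differed between lines, at -2.54 for T-47D minus ECC-1 on the log2(scaled RPKM + 0.5) scale, and so did the response to genistein, at -1.91. Each was picked out because limma's test of the difference itself passed an adjusted p of 0.05. In ECC-1 both libraries of each treatment lay above both DMSO libraries. In T-47D the estradiol libraries spanned the DMSO libraries, and both genistein libraries lay above them. MUC5B levels in T-47D were under the pseudocount of 0.5 in all 8 libraries, which holds log2 differences there close to 0.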

How the results depend on the processing

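For the 4 tested members, 1244 of 1256 single values kept their side of the threshold, 12 newly passed it, and no called value changed direction. Some uncalled values near 0 changed sign. Of 322 counts of called members, 305 held. Asking for a mean of at least 5 RPKM removed MUC5B and MUC20, so 0 members were called with estradiol, BPA or genistein in ECC-1 and 0 in the estradiol and genistein comparisons of lines. MUC5B passed between genistein and BPA in ECC-1 (1 called) with a pseudocount of 1, with array weights, and without both first estradiol libraries. It passed in the BPA comparison of lines (1 called) under the same 3 and with quantile normalization. The cause was not tested. Leaving out 1 library gave 0 to 1 called for both, with 1 without T-47D estradiol replicate 1 or 2, and 0 to 1 for estradiol in T-47D, where MUC20 passed without T-47D estradiol replicate 2. In ECC-1 MUC5B stayed called in 26 of 26 alternatives, at 2.21 to 3.06 with estradiol, 1.11 to 1.73 with BPA and 1.87 to 2.67 with genistein.

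Replicate numbers were not taken as pairs, since deviations of same-numbered libraries correlated at -0.224 to 0.408 and not every pair of groups exceeded 0.1. Within T-47D, the BPA, genistein and DMSO libraries did correlate, at 0.208 to 0.408. A replicate block changed no call, with 1 member called for each compound in ECC-1, 0 in T-47D and 3 between lines. Crossing the ECC-1 DMSO numbers in that block, an alternative chosen after seeing the data, also called 1 with estradiol and 1 with genistein. MUC4, MUC13 and MUC15 rest on few reads per library, at most 16 as estimated, which limits the precision of their values. The MUC15 estimate was 0.6155 reads in ECC-1 genistein replicate 2, under 1 read, so its reads may be underestimated.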
